A study of Mus musculus with 28 samples.

Results

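Peritoneal macrophages taken 3 weeks after an injection of lipopolysaccharide (LPS) were compared directly with those taken 3 weeks after β-glucan (BG), without the PBS controls in the contrast. The compared means came from 8 of the 28 arrays of the study, 4 titled LPS and 4 titled BG, over all 21789 probe sets with 1 gene symbol. All 28 arrays entered the fit, so the 7 groups shared 1 estimate of the spread. Arrays titled WT, KO (the Atf7 knockout), PGN and IMQ (imiquimod) thus also enter each SE, interval and limma p below. The LPS group was wild-type mice of C57BL/6 background given LPS of E. coli O111:B4 intravenously. The BG group was mice of the same genotype and background given β-glucan by the same route. The PBS group, 4 arrays of such mice injected with the carrier alone, stays out of the LPS against BG contrast and is set beside it for a few genes, as a level and as the difference of each ligand from PBS. Per the labels all these mice were injected at 7 to 8 weeks of age and analysed 3 to 4 weeks later, at 10 to 12 weeks. Cells were washed from the cavity without an eliciting agent and kept overnight in serum-free medium on dishes rinsed of loose cells. The 4 arrays of a group were described by the submitters as independent biological experiments, and no doses are given in the sources used here.

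LPS is the outer-membrane glycolipid of Gram-negative bacteria and is sensed by TLR4 together with MD-2 and CD14. β-glucan is a glucose polymer of fungal cell walls and is sensed chiefly by dectin-1, which signals through SYK and CARD9. Both are known to leave macrophages and monocytes with altered responses for weeks after exposure. The resident population of the mouse peritoneum consists mainly of large peritoneal macrophages, which depend on the transcription factor GATA6 and on retinoic acid from the surrounding tissue. Such cells express coagulation factors and matrix proteins and clear dying cells from the cavity.

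The mice given LPS and those given BG differed in macrophage identity genes, in antioxidant genes and in respiratory chain genes. Macrophages after LPS had higher levels of Gata6 and of the adhesive, coagulation and adenosine genes typical of large peritoneal macrophages than those after BG. They also had higher levels of Hif1a, Il1b, Arg2 and several cholesterol synthesis genes than those after BG. S100a6, S100a4, Plk2 and Myc were lower after LPS than after BG. So were 12 of 26 genes of the NRF2 antioxidant response (46.2%, 1 was higher). Of 37 genes of the respiratory chain and ATP synthase 21 were lower (56.8%) and 4 higher. Among all genes above the background floor given below, 17.3% were lower and 15.5% higher.

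Levels below are log2 signals and differences are LPS minus BG on that scale. A probe set was called where limma's adjusted p was under 0.05. Of 21789 probe sets 5498 were called, which is 25.2%, with 2682 higher (12.3%) and 2816 lower (12.9%) after LPS. Among 13512 genes above the background floor of 6.32, 2093 were higher (15.5%) and 2336 lower (17.3%) after LPS. Most differences were small, with a median size of 0.27 among the called genes. At least 1.5-fold differences were called for 131 genes higher (0.97%) and 144 lower (1.07%) after LPS, and differences of at least 2-fold for 23 and 18.

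**Figure D1:**
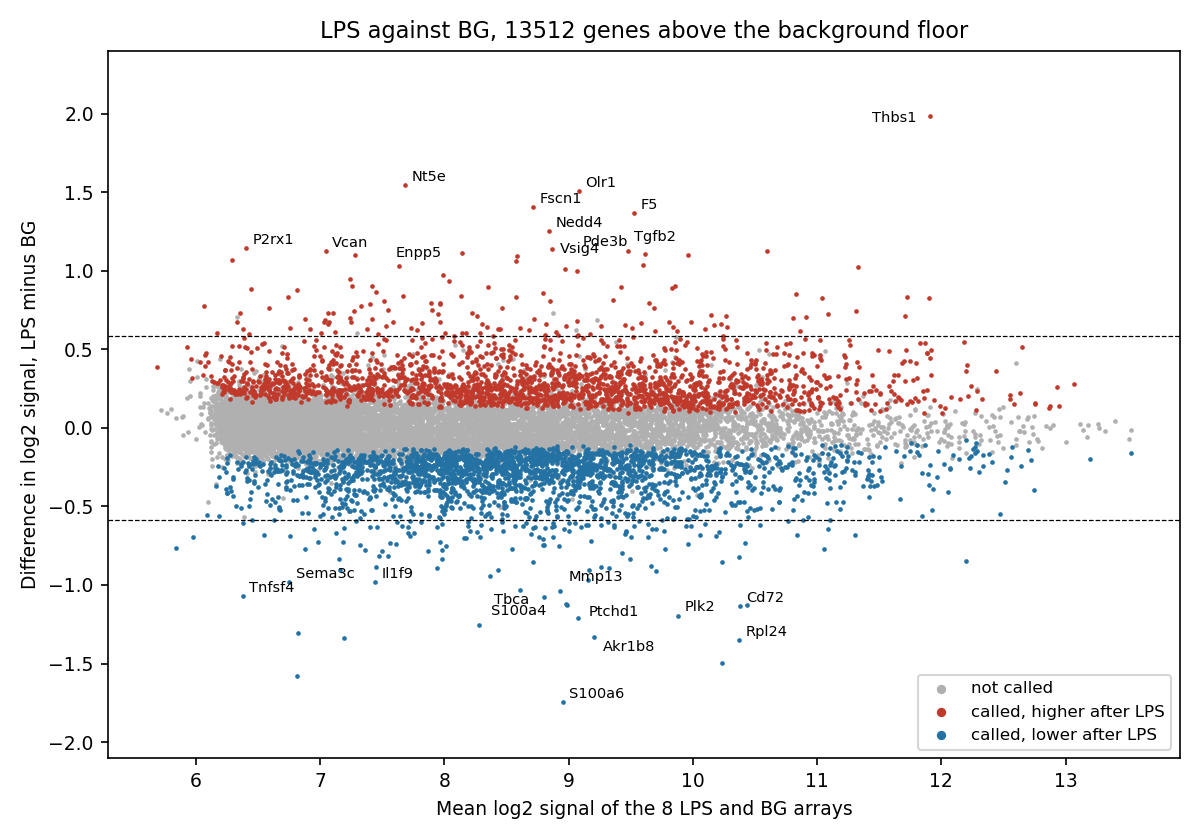
Difference in log2 signal between LPS and BG (vertical axis, LPS minus BG) against the mean log2 signal of the 8 arrays (horizontal axis) for 13512 genes above the floor. Each point is a gene, colours mark limma calls, dashed lines mark 1.5-fold, and the 12 genes per direction named by rule are labelled. Thbs1 stands highest at 1.98, and S100a6 is the lowest of the named genes at -1.75.

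Arrays of the LPS group correlated with each other at 0.995 to 0.997, arrays of the BG group at 0.997, and LPS with BG arrays at 0.990 to 0.993. In the same fit 6.99% of probe sets were called for LPS against PBS and 31.2% for BG against PBS, contrasts that share the PBS arrays. The pan-macrophage markers were all 15 above the floor, and their mean was 10.79 to 10.85 on LPS arrays and 10.68 to 10.74 on BG arrays. Of these 15, 5 were called higher and 2 lower after LPS (33.3% and 13.3%). The shares of all genes above the floor were 15.5% and 17.3%. Of 22 T and NK cell markers 14 were at or under the floor in both groups and 0 were called (5 at an unadjusted p under 0.05). The mean of 24 B cell markers was 7.84 to 7.93 on LPS arrays and 7.63 to 7.71 on BG arrays. Of these markers 6 were called higher (25%), 2 lower (8.33%) and 4 were at the floor in both groups. Without LPS replicate 1 or BG replicate 3 only 3 B cell markers were higher. Probe sets for small nucleolar RNAs and for odorant receptors had calls mostly in a single direction. Of 54 small nucleolar RNA genes, 44 above the floor, 33 were lower and 0 higher after LPS (61.1% called), with a median of -0.35. Of 1194 odorant and vomeronasal receptor genes, only 110 above the floor, 152 were higher and 5 lower (13.1% called), with a median of 0.10. Among all 19938 genes 24.6% were called, 12.3% in each direction, with a median of 0.015. With each array centred on those receptor probe sets, an alternative chosen after seeing the data, 15.4% of calls were higher after LPS in place of 48.8%, and the median difference of all probe sets moved to -0.091 in place of 0.012. No array date or batch is given in the sources used here, so an effect of array processing and the effect of the ligand cannot be told apart. In bulk RNA, fewer cells of a type and less RNA per cell cannot be told apart either.

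Identity genes of large peritoneal macrophages made up the list with the highest share of members higher after LPS. Of 32 measured members, all above the floor, 20 were higher and 3 lower after LPS (62.5% and 9.38%, against 15.5% and 17.3% of all genes above the floor). The median difference of the list was 0.48, against 0.001 for all genes above the floor. The mean level of the list was 10.09, 9.96, 10.08 and 9.83 on the LPS arrays and 9.53, 9.53, 9.38 and 9.47 on the BG arrays, so the groups did not overlap. The count was 21 higher and 3 lower without LPS replicate 4, the LPS array nearest to BG, and 19 and 3 with the B cell marker mean as a covariate. Whether the difference in B cell markers takes part in these results was not tested further.

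Gata6, the master regulator of this macrophage type, measured 10.71, 10.48, 10.57 and 10.28 on the LPS arrays and 9.51, 9.52, 9.23 and 9.39 on the BG arrays. Every LPS array was above every BG array, and Gata6 was 2.14-fold higher after LPS (difference 1.10 ± 0.12 SE, limma adjusted p = 4.62e-08). Against PBS at 10.35 ± 0.23 (SD, n = 4) the difference of Gata6 was 0.16 for LPS (limma adjusted p = 0.336) and -0.93 for BG (limma adjusted p = 5.81e-07). For Gata6 and each other gene below whose groups did not overlap, the exact two-sided permutation test of 4 against 4 arrays gave its smallest possible p, 0.0286. Among genes above the floor such separation occurred for 15.7% with LPS above BG and 17.9% with LPS below BG.

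Thbs1 encodes thrombospondin-1, an adhesive glycoprotein that activates TGF-β. Thbs1 measured 13.07, 12.88, 12.93 and 12.73 on the LPS arrays and 11.01, 10.89, 10.84 and 10.94 on the BG arrays. The gap between the groups was many times the spread within them, and Thbs1 was 3.96-fold higher after LPS (95% interval of the log2 difference 1.78 to 2.19, limma adjusted p = 1.75e-14). Against PBS at 12.93 ± 0.11 (SD, n = 4) the difference of Thbs1 was -0.02 for LPS (adjusted p = 0.89) and -2.01 for BG (limma adjusted p = 1.54e-14).

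Nt5e encodes CD73, which makes adenosine from AMP outside the cell. Its levels were 8.74, 8.13, 8.64 and 8.34 after LPS and 7.01, 7.19, 6.39 and 7.07 after BG, without overlap. Nt5e was 2.92-fold higher after LPS (limma adjusted p = 5.6e-06). F5, coagulation factor V, measured 10.50, 10.18, 10.23 and 9.93 after LPS and 9.14, 8.61, 8.86 and 8.77 after BG, and was 2.58-fold higher after LPS (limma adjusted p = 1.07e-06). Vsig4, a complement receptor of resident macrophages, was 2.2-fold higher (9.43 ± 0.19 after LPS, 8.30 ± 0.16 after BG, SD, n = 4 each, limma adjusted p = 1.2e-06).

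Tgfb2, a TGF-β ligand gene, was 2.18-fold higher after LPS (10.04 ± 0.12 after LPS, 8.91 ± 0.34 after BG, limma adjusted p = 0.00152). Lbp, which encodes the LPS-binding protein, was 1.97-fold higher (8.48 ± 0.30 after LPS, 7.50 ± 0.14 after BG, adjusted p = 5.04e-05). Smaller differences were called for Prg4 (0.71), a lubricating proteoglycan gene, Alox15 (0.55), a lipoxygenase gene, and Fn1 (0.51), the fibronectin gene. The macrophage marker gene Adgre1, which encodes F4/80, differed by 0.11 at a level of 12.33 after LPS and 12.22 after BG.

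The 3 exceptions, named after their values were seen, were Pf4, a platelet-type chemokine gene, Cd5l, a secreted scavenger protein gene, and Cd9, a tetraspanin gene. Pf4 measured 10.97 ± 0.17 after LPS and 11.65 ± 0.08 after BG, Cd5l 9.83 ± 0.23 and 10.35 ± 0.10, and Cd9 9.87 ± 0.19 and 10.39 ± 0.06, each pair LPS first (SD, n = 4 each). The other 9 identity genes did not pass the test.

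**Figure D2:**
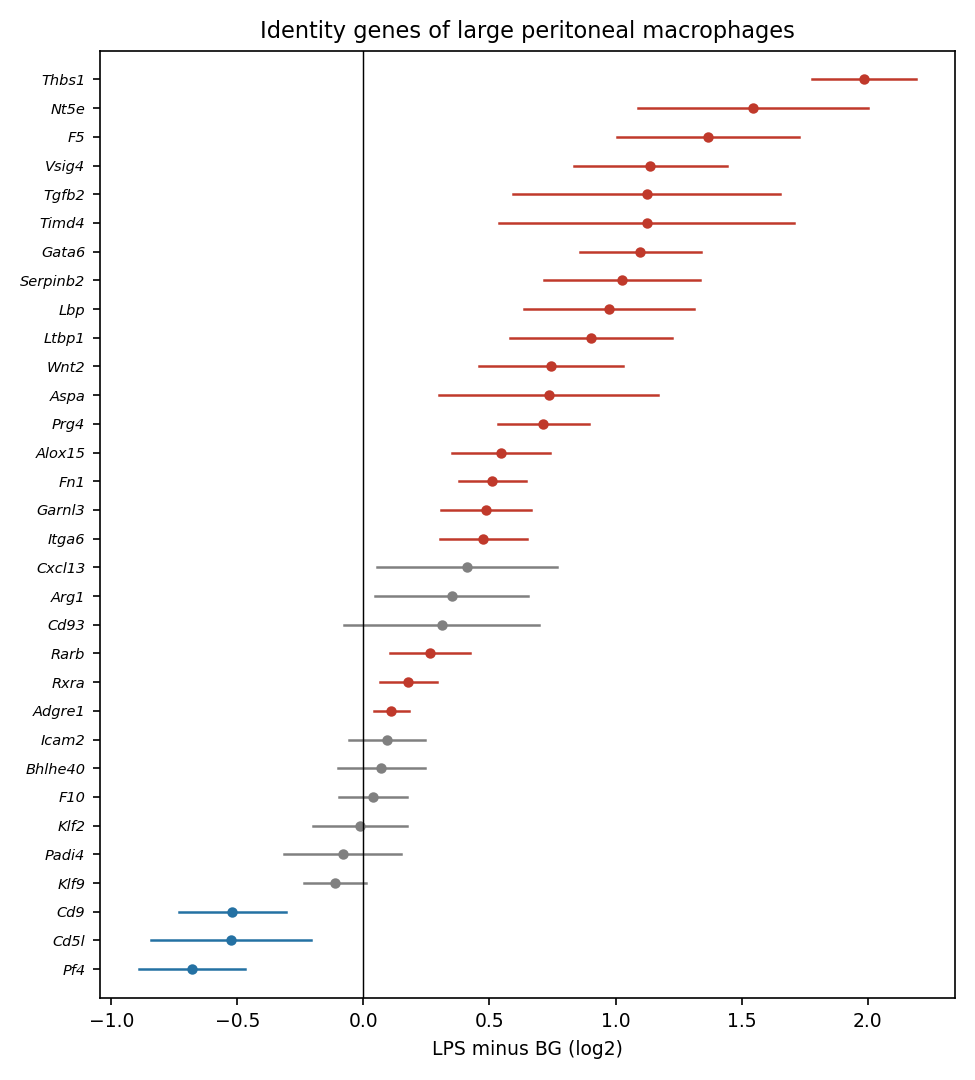
Difference in log2 signal, LPS minus BG (horizontal axis), for the 32 measured identity genes of large peritoneal macrophages, one per row. Points are limma estimates, lines are 95% intervals, red and blue mark genes called higher and lower after LPS and grey genes not called. Thbs1 is the uppermost of 20 higher genes, and Cd9, Cd5l and Pf4 are the 3 lower ones.

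Coagulation and matrix genes overlapped with this list and had 11 of 28 members higher and 4 lower after LPS (39.3% and 14.3%, against 15.5% and 17.3% of all genes above the floor). Vcan, the versican gene, measured 7.70, 7.24, 8.02 and 7.48 after LPS and 6.83, 6.18, 6.58 and 6.35 after BG, and was 2.18-fold higher (limma adjusted p = 0.00178). Ecm1, another matrix gene, was higher by 0.47 (adjusted p = 1.89e-06). The 4 lower members, named after their values were seen, included the plasminogen activator gene Plau (-0.91) and the gene of its receptor, Plaur (-0.57), and the others were Procr (-0.51) and Mmp12 (-0.24).

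Among genes outside the identity list, Olr1 had the largest difference in the upward direction among the genes named by rule. Olr1 encodes LOX-1, a scavenger receptor for oxidised lipoprotein, and measured 10.34, 9.62, 9.98 and 9.42 on the LPS arrays against 8.49, 8.59, 8.06 and 8.18 on the BG arrays. The groups did not overlap, and Olr1 was 2.85-fold higher after LPS (limma adjusted p = 5.61e-08). Fscn1, which encodes the actin-bundling protein fascin, was 2.65-fold higher (9.42 ± 0.40 after LPS, 8.01 ± 0.23 after BG), although LPS replicate 4 stood at 8.83, nearer to the BG arrays than the others.

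The ubiquitin ligase gene Nedd4 was 2.38-fold higher after LPS (9.47 ± 0.48 after LPS, 8.22 ± 0.20 after BG, limma adjusted p = 0.00024). Enpp5, of the nucleotide pyrophosphatase family, was 2.16-fold higher (adjusted p = 5.89e-07), and Pde3b, a cyclic nucleotide phosphodiesterase gene, 2.15-fold higher (adjusted p = 1.76e-08). P2rx1, the gene of an ATP-gated channel, was at or under the floor on all 4 BG arrays and at 7.27, 6.89, 7.28 and 6.48 on the LPS arrays, at least 1.58-fold higher after LPS measured against the floor (adjusted p = 0.000433).

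Of the genes named by rule, S100a6 had the largest difference in the other direction. S100a6 encodes a calcium-binding protein and measured 7.77, 7.73, 8.07 and 8.76 on the LPS arrays and 9.81, 9.75, 9.95 and 9.78 on the BG arrays. No array overlapped, the LPS arrays were the more scattered, and S100a6 was 3.35-fold lower after LPS (difference -1.75 ± 0.19 SE, limma adjusted p = 7.25e-08). S100a4, the gene of a related protein, measured 8.15, 8.21, 8.49 and 8.82 after LPS and 9.65, 9.27, 9.69 and 9.56 after BG, 2.18-fold lower after LPS (adjusted p = 3.19e-06). Against PBS at 8.38 ± 0.53, S100a6 differed by -0.30 for LPS (adjusted p = 0.277) and by 1.44 for BG (limma adjusted p = 1.34e-06).

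Plk2, the gene of a stress-induced polo-like kinase, measured 9.19, 9.14, 9.25 and 9.56 after LPS and 10.40, 10.40, 10.62 and 10.50 after BG. Again the groups stood apart, and Plk2 was 2.29-fold lower after LPS (limma adjusted p = 1.48e-07). Akr1b8, of the aldo-keto reductases that detoxify lipid aldehydes, was 2.51-fold lower after LPS (8.54 ± 0.43 after LPS, 9.87 ± 0.21 after BG, adjusted p = 0.000135). Ptchd1, a patched-domain gene, was 2.31-fold lower after LPS. Its other probe set was called lower too, but its LPS mean of 5.37 lay under the floor of 6.32. Its BG mean was 6.44, so no size is given for it.

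Cd72, an inhibitory lectin-type receptor gene, had 1 LPS array close to the BG arrays. Its levels were 9.34, 9.49, 9.58 and 10.84 on the LPS arrays and 10.86, 10.92, 11.13 and 10.87 on the BG arrays, LPS replicate 4 lying just under the BG range (2.19-fold lower, limma adjusted p = 0.00348). The tubulin cofactor gene Tbca was 2.11-fold lower after LPS with little spread (8.27 ± 0.22 after LPS, 9.35 ± 0.05 after BG, adjusted p = 4.66e-11). The collagenase gene Mmp13 was 2.05-fold lower (8.41 ± 0.14 after LPS, 9.45 ± 0.04 after BG) and Il1f9, an interleukin-1 family cytokine gene, 1.97-fold lower (6.96 ± 0.26 after LPS, 7.94 ± 0.11 after BG). Tnfsf4, which encodes OX40 ligand, was at or under the floor on all 4 LPS arrays and at 6.92 ± 0.14 after BG, at least 1.51-fold lower after LPS (limma adjusted p = 2.3e-06). Sema3c, a semaphorin gene, had an LPS mean of 6.26 under the floor and a BG mean of 7.24 and is given without a fold (adjusted p = 4.53e-05).

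**Figure D3:**
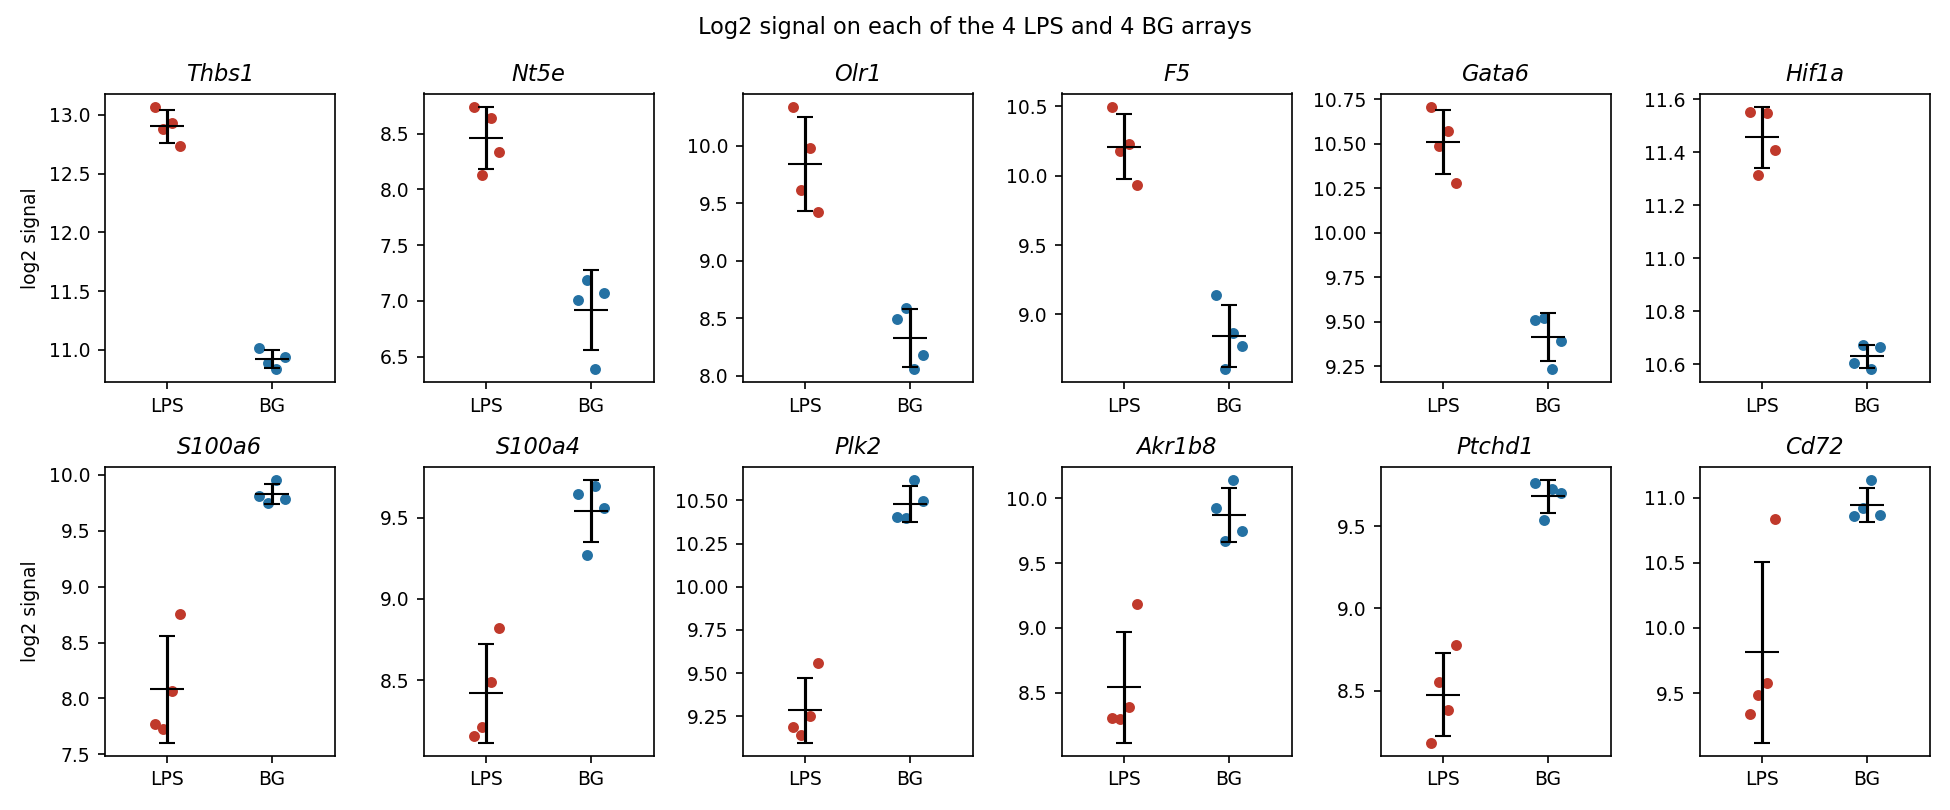
Log2 signal (vertical axis, its range set for each panel) on the 4 LPS arrays (left, red) and the 4 BG arrays (right, blue) for 12 genes. Points are arrays, the long bar is the mean and the whiskers are 1 SD. The upper row shows genes higher after LPS and the lower row genes lower after LPS, with Cd72 on 1 LPS array at 10.84 beside BG arrays from 10.86.

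The receptors of both ligands were examined next. Of 16 measured genes of endotoxin recognition 4 were higher and 2 lower after LPS (25% and 12.5%, against 15.5% and 17.3% of all genes above the floor), all 16 being above the floor. Ly96, which encodes MD-2, the LPS-binding partner of TLR4, measured 11.38, 11.20, 11.38 and 11.37 after LPS and 11.10, 10.98, 11.02 and 10.92 after BG, 1.25-fold higher (limma adjusted p = 0.000347). Ly86, of the related MD-1, differed by 0.34 and the adaptor gene Tirap by 0.33, both higher. Tlr4 itself was lower (difference -0.30, 8.77 ± 0.16 after LPS, 9.06 ± 0.11 after BG, adjusted p = 0.00781). Its call was lost without LPS replicate 2 (-0.23, limma adjusted p = 0.0524). Cd14, the co-receptor gene, did not pass, with 11.11 ± 0.18 after LPS and 11.01 ± 0.07 after BG (95% interval of the difference -0.05 to 0.26, adjusted p = 0.362).

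Of 18 measured genes of β-glucan recognition, all above the floor, 0 were higher and 7 lower after LPS (38.9%, against 17.3% of all genes above the floor). The median of the list was -0.08, and it was -0.003 without LPS replicate 2, -0.043 without BG replicate 1 and -0.049 without LPS replicate 1. Clec7a, the dectin-1 gene, did not pass, with 10.49, 10.28, 10.20 and 10.49 after LPS and 10.32, 10.21, 10.17 and 10.21 after BG (difference 0.14, 95% interval -0.04 to 0.32, limma adjusted p = 0.261), and its groups overlapped. With the B cell marker mean as a covariate it passed (0.24, adjusted p = 0.0416). Card9 did not pass either (8.84 ± 0.10 after LPS, 8.81 ± 0.07 after BG, adjusted p = 0.823). Syk, the kinase downstream of dectin-1, was 1.18-fold lower after LPS (10.41 ± 0.08 after LPS, 10.65 ± 0.07 after BG, adjusted p = 0.000344). The kinase genes Src (-0.43) and Prkcd (-0.15) and the integrin gene Itgb2 (-0.17), whose product pairs into complement receptor 3, were lower as well.

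Of 37 cytokine genes induced through NF-κB 7 were higher and 8 lower after LPS (18.9% and 21.6%). The shares of all genes above the floor were 15.5% and 17.3%, but only 27 of the 37 were above it. In a fit of only the probe sets above the floor 6 of these 27 were higher and 7 lower. That fit called 2271 of 13512 genes higher and 2479 lower. Il1b, which encodes the precursor of interleukin-1β, measured 8.20, 7.68, 7.79 and 7.64 after LPS and 6.92, 6.66, 6.62 and 6.72 after BG. All LPS arrays were above all BG arrays, and Il1b was 2.14-fold higher after LPS (limma adjusted p = 8.57e-06). Against PBS at 7.89 ± 0.20 the difference of Il1b was -0.06 for LPS (adjusted p = 0.832) and -1.16 for BG (adjusted p = 3.48e-06). The eosinophil attractant gene Ccl24 (0.86), the chemokine gene Cxcl16 (0.47) and the cytokine subunit gene Ebi3 (0.43) were higher too.

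Cxcl2, a neutrophil attractant gene, measured 10.60, 10.20, 10.34 and 9.79 on the LPS arrays against 10.80, 10.91, 10.87 and 10.82 on the BG arrays. It was 1.54-fold lower after LPS without overlap (limma adjusted p = 0.00184), and Ccl3 was 1.19-fold lower (adjusted p = 0.00339). Chemokine genes named after their values were seen, Ccl2 (-0.86), Cxcl3 (-0.66) and Ccl7 (-0.63), were also lower. Tnf did not pass (10.09 ± 0.11 after LPS, 10.31 ± 0.19 after BG, difference -0.22, 95% interval -0.47 to 0.02), and Il6 lay under the floor in both groups, where its call carries no level. Among NF-κB subunits and inhibitors 6 of 22 were higher and 2 lower (27.3% and 9.09%). The shares of all genes above the floor were 15.5% and 17.3%. With arrays centred on the receptor probe sets 1 was higher and 4 lower. The subunit gene Rel (0.29) was higher, and the adaptor gene Traf1 (-0.66) was lower.

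Interferon-response genes had calls in the upward direction, at a share close to the background. Of 39 measured type I interferon genes 6 were higher and 0 lower after LPS (15.4%, against 15.5% of all genes above the floor), and 31 of 39 differences were positive. Their median was 0.22, or 0.11 without LPS replicate 3 and 0.12 with the B cell marker mean as a covariate. The mean of the list was 9.42, 9.59, 9.78 and 9.34 on the LPS arrays and 9.25, 9.58, 9.20 and 9.36 on the BG arrays, so the groups overlapped. Trim30a, an interferon-induced TRIM protein gene, measured 11.23, 11.27, 11.41 and 11.10 after LPS and 10.72, 11.01, 10.67 and 10.77 after BG and was 1.38-fold higher (limma adjusted p = 0.00086). Lgals3bp (0.36), Samd9l (0.31) and Ifitm3 (0.22) were higher also. Of those the calls of Samd9l and Ifitm3 were lost with arrays centred on the receptor probe sets (adjusted p = 0.109 and 0.264), where 2 genes of the list stayed called.

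The GTPases and chemokines induced by interferon-γ had 3 of 17 members higher, namely Irgm1 (0.46), Cd274 (0.30), which encodes PD-L1, and Batf2 (0.26), and 0 lower (17.6% higher, near the 15.5% of all genes above the floor). Of these 17 members 15 were above the floor. With the B cell marker mean as a covariate all 3 calls were lost (limma adjusted p = 0.0737, 0.0649 and 0.0616), as they were with arrays centred on the receptor probe sets. Without BG replicate 3 the list had 0 called members in limma's fit, and without BG replicate 2 it had 5. Cxcl9 measured 9.53, 9.87, 9.75 and 9.14 after LPS and 8.81, 9.37, 8.49 and 8.89 after BG and did not pass (difference 0.69, limma adjusted p = 0.105). In a fit of the 8 arrays alone it passed (adjusted p = 0.00654). Cxcl10 measured 10.85 ± 0.60 after LPS and 10.38 ± 0.44 after BG (adjusted p = 0.35), and Nos2, the inducible nitric oxide synthase gene, 8.11 ± 0.39 after LPS and 7.80 ± 0.46 after BG (limma adjusted p = 0.508). Against PBS, Cxcl10 at 9.12 ± 0.75 differed by 1.73 for LPS (adjusted p = 0.0125) and by 1.26 for BG (limma adjusted p = 0.00574). Nos2 at 6.84 ± 0.51 in PBS differed by 1.28 for LPS and 0.96 for BG (limma adjusted p = 0.0213 and 0.0171).

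The upstream sequence of Trim30a is shown because, of the 6 called type I interferon genes, it had a match in RefSeq's table to the interferon-stimulated response element, searched on both strands of the 250 bases before the start site. Capitals mark the match, which lies on the reverse strand of the printed sequence, 36 to 27 bases before the start. The window is chr7:104465194-104465443, minus strand, build GRCm38.p6, from RefSeq, 1 of 2 promoters listed for the gene.
Trim30a: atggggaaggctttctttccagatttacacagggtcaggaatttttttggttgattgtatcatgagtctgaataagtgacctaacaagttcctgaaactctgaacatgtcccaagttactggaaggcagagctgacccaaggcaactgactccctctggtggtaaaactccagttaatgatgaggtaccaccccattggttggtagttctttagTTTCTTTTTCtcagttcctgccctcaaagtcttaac
In RefSeq's list 2.98% of 32851 promoters held this motif, against 21.6% of the 37 promoters of the type I list and 50% of the 12 promoters of the interferon-γ list. Of the 8 type I genes with a match only Trim30a was called, and of the 6 interferon-γ genes with a match only Irgm1. Of all promoters of genes called higher after LPS 2.98% held it, and of those called lower 2.01%. The share among promoters of all genes above the floor was 2.64%. A match describes letters in a window and no binding was measured.

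Antioxidant genes controlled by NRF2 were examined as a list. NRF2, encoded by Nfe2l2, is a transcription factor that is released from KEAP1 under oxidative or electrophilic stress and induces detoxifying enzymes. Of 26 measured genes of the list, all above the floor, 12 were lower and 1 was higher after LPS (46.2% and 3.85%, against 17.3% and 15.5% of all genes above the floor), and the median was -0.15. The mean level of the list was 11.07, 11.02, 11.09 and 11.20 on LPS arrays and 11.33, 11.30, 11.32 and 11.29 on BG arrays, without overlap.

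Gsta3, a glutathione transferase gene, measured 7.15, 7.35, 7.56 and 7.93 after LPS and 8.40, 8.32, 8.47 and 8.38 after BG. It was 1.86-fold lower after LPS, the LPS arrays being the more scattered (limma adjusted p = 0.000182). Against PBS at 8.21 ± 0.19 the difference of Gsta3 was -0.71 for LPS (adjusted p = 0.0205) and 0.19 for BG (limma adjusted p = 0.425).

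Srxn1, the sulfiredoxin gene, measured 10.80, 10.77, 10.79 and 10.99 after LPS and 11.32, 11.26, 11.35 and 11.34 after BG, 1.39-fold lower (limma adjusted p = 0.000217). Txnrd1, the thioredoxin reductase gene, measured 10.18, 10.13, 10.14 and 10.27 after LPS and 10.70, 10.63, 10.66 and 10.62 after BG, 1.38-fold lower (adjusted p = 0.000189). Both pairs of groups stood apart. Taldo1, of the pentose phosphate pathway, was 1.48-fold lower (adjusted p = 2.17e-05), and Nqo1, a quinone reductase gene named after its value was seen, differed by -0.68. Nfe2l2 itself was the 1 higher member (11.75 ± 0.08 after LPS, 11.56 ± 0.03 after BG, adjusted p = 0.00252), a call lost with arrays centred on the receptor probe sets (0.09, adjusted p = 0.352).

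The sequences before the start sites of 3 of these genes, all lower after LPS, are shown. They set the motif NRF2 uses, or in Srxn1 a related one, beside the values. The antioxidant response element was searched as TGACNNNGC and the related AP-1 element as TGANTCA, on both strands of 250 bases. Letters of both elements can overlap. Capitals mark the antioxidant element in Gsta3 and Txnrd1, on the reverse strand in Txnrd1, and the 2 AP-1 matches in Srxn1. Srxn1 had no match to the antioxidant element in its window. The windows, plus strand, build GRCm38.p6, from RefSeq, are chr1:21240335-21240584 for Gsta3, chr10:82858956-82859205 for Txnrd1, 1 of 3 listed for it, and chr2:152105274-152105523 for Srxn1.
Gsta3: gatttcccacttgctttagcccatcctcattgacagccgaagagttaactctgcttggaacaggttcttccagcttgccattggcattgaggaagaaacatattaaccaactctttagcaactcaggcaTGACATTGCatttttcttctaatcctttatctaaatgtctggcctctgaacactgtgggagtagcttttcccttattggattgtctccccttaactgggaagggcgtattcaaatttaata
Txnrd1: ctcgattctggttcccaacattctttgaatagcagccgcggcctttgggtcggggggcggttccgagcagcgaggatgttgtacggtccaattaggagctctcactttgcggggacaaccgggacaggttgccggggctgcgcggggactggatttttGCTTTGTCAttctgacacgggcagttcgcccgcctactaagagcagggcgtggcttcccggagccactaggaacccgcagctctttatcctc
Srxn1: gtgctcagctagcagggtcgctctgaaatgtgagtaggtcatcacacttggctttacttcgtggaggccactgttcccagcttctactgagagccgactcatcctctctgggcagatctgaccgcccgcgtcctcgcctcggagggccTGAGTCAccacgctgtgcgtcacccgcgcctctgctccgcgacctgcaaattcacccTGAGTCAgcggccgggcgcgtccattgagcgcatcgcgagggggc
The matches lie 121 to 113 bases before the start in Gsta3, 92 to 84 in Txnrd1, and 102 to 96 and 45 to 39 in Srxn1. The antioxidant element, a search added after seeing the data, was present in 10.2% of 32851 promoters and in 17.9% of the 28 promoters of the list, belonging to 5 of 21 genes. Of these 5, Gsta3, Txnrd1 and Prdx1 were lower after LPS, Gclm was not called and Nfe2l2 was higher. The AP-1 element was in 6.75% of all promoters, in 4.72% of those of all genes above the floor and in 7.14% of the 28 promoters of the list. Among promoters of genes lower and higher after LPS 12.6% and 11.2% held the antioxidant element, against 11.5% of those of all genes above the floor.

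Cholesterol synthesis genes, which SREBP2 controls, had 8 of 20 measured members higher and 0 lower after LPS (40.0%, against 15.5% of all genes above the floor). All 20 were above the floor, 18 of 20 differences were positive, and the median was 0.29. Nsdhl, a sterol dehydrogenase gene, measured 8.77, 8.68, 8.92 and 8.77 after LPS and 8.19, 8.41, 8.14 and 8.30 after BG, 1.44-fold higher (limma adjusted p = 2.36e-05). Idi1, which makes an isoprenoid building block, was 1.6-fold higher (7.37 ± 0.30 after LPS, 6.70 ± 0.10 after BG, adjusted p = 0.00538). Lss, the lanosterol synthase gene (0.47), and Srebf2 (0.29), which encodes SREBP2, were higher too. The count varied with the arrays and the fit, with 5 higher without LPS replicate 3, 13 without LPS replicate 4, 4 with the B cell marker mean as a covariate and 3 with arrays centred on the receptor probe sets. The list mean on LPS arrays 1 to 4 was 8.42, 8.29, 8.48 and 8.19 and on the BG arrays 8.03, 8.13, 8.03 and 8.06.

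**Figure D4:**
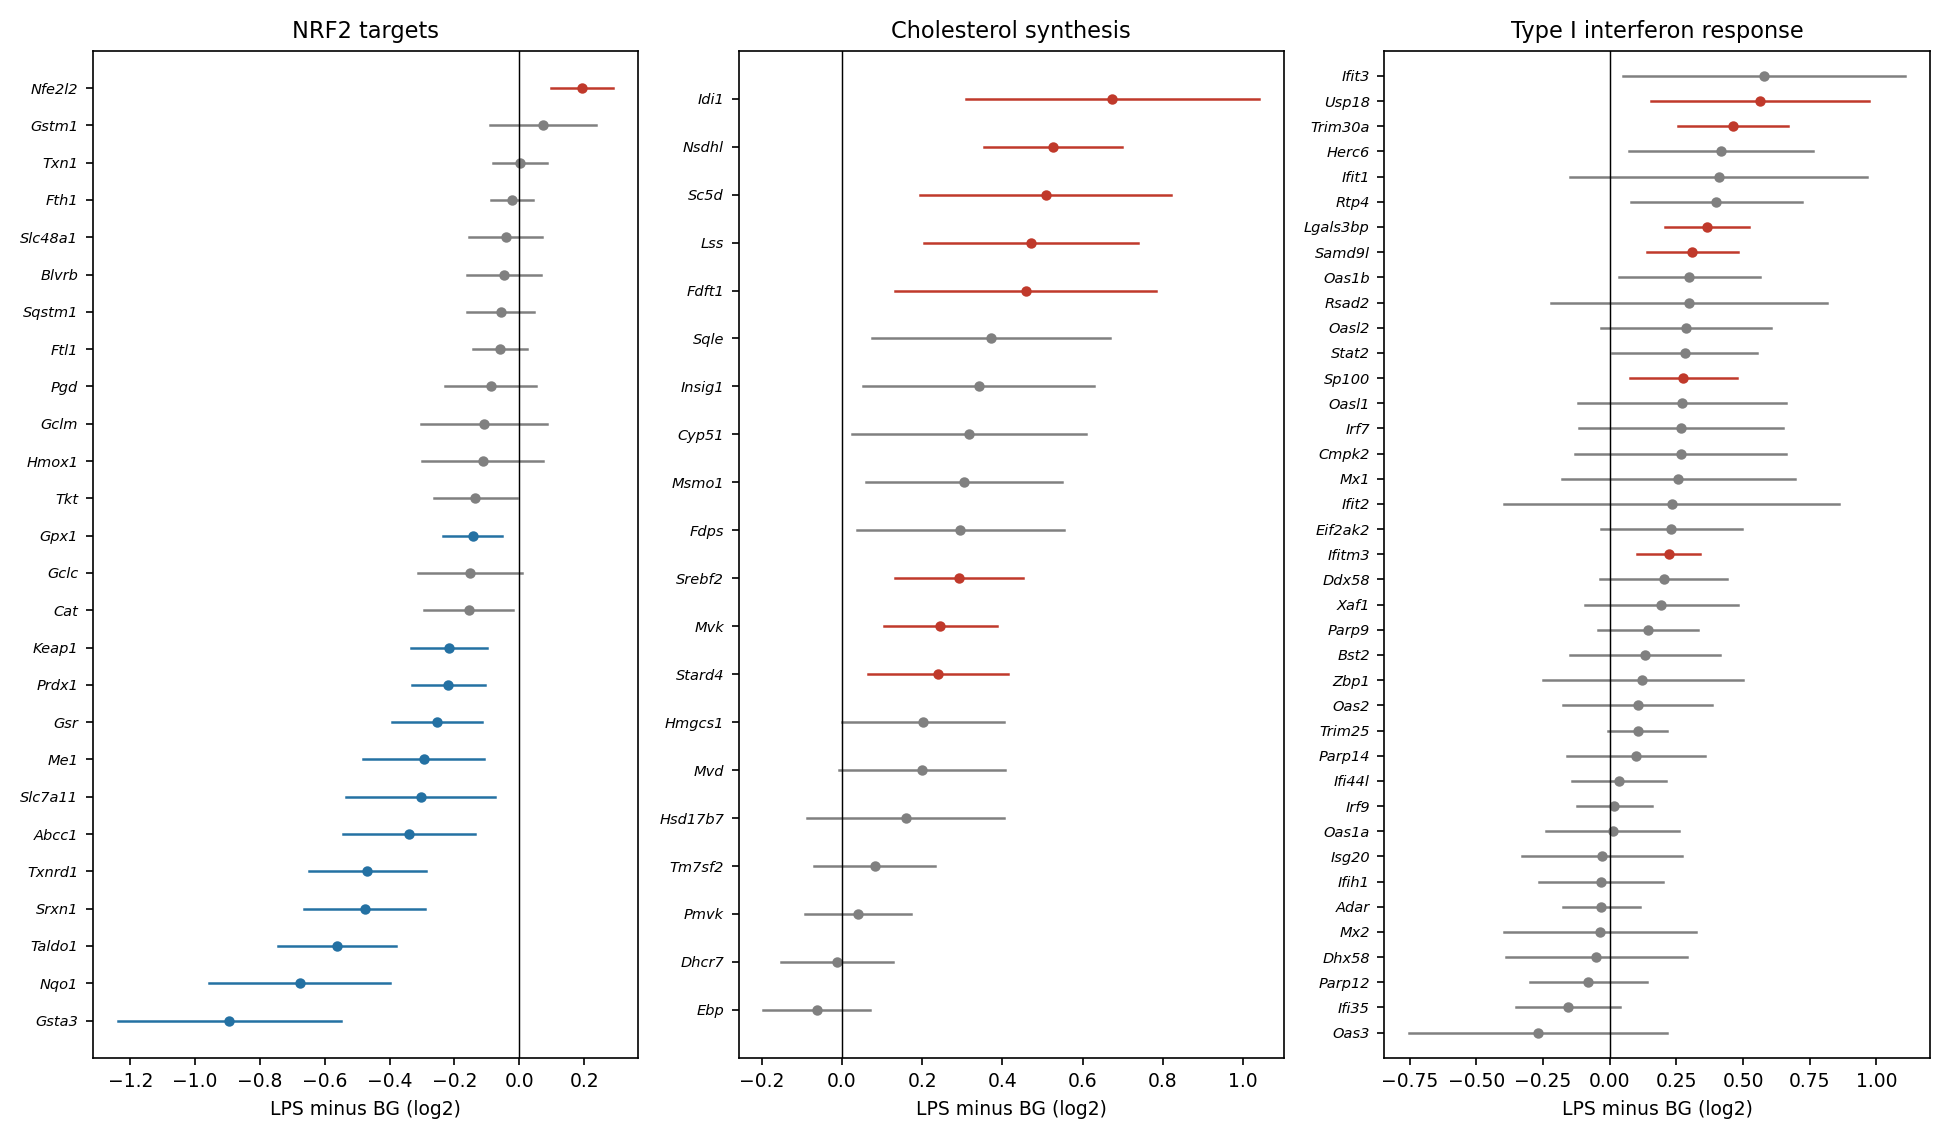
Difference in log2 signal, LPS minus BG (horizontal axes, scaled for each panel), for the measured members of 3 lists, one gene per row. Points are limma estimates, lines are 95% intervals, red and blue mark genes called higher and lower after LPS and grey genes not called. The NRF2 list has 12 lower genes, the cholesterol list 8 higher and the type I interferon list 6 higher.

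Energy metabolism was described by a respiratory list and a glycolysis list. Of 37 oxidative phosphorylation genes, all above the floor, 21 were lower and 4 higher (56.8% and 10.8%, against 17.3% and 15.5% of all genes above the floor), with a median of -0.20. Ndufa1, of complex I, measured 7.41, 7.38, 7.77 and 7.33 after LPS and 8.20, 8.22, 8.28 and 8.33 after BG, 1.72-fold lower without overlap (limma adjusted p = 1.65e-08). Ndufa4 was 1.59-fold lower (8.37 ± 0.18 after LPS, 9.04 ± 0.10 after BG, adjusted p = 7.25e-08) and Ndufb10 1.44-fold lower. Atp5d, of the ATP synthase, was higher (12.40 ± 0.07 after LPS, 12.00 ± 0.02 after BG, adjusted p = 2.76e-10).

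Among 21 glycolysis genes 6 were lower and 1 was higher after LPS (28.6% and 4.76%, against 17.3% and 15.5% of all genes above the floor). The hexokinase gene Hk3 (-0.58), the triose phosphate isomerase gene Tpi1 (-0.47) and the pyruvate kinase gene Pkm (-0.37) were lower. Hif1a, the oxygen-regulated activator of glycolysis genes, was the higher one, with 11.55, 11.31, 11.55 and 11.41 after LPS and 10.60, 10.67, 10.58 and 10.66 after BG. It was 1.77-fold higher after LPS with no overlap (limma adjusted p = 6.88e-11), while Mtor did not pass (8.78 ± 0.03 after LPS, 8.85 ± 0.05 after BG, adjusted p = 0.344). Against PBS at 11.46 ± 0.02, Hif1a differed by -0.0016 for LPS (adjusted p = 0.987) and by -0.83 for BG (limma adjusted p = 5.73e-11).

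Cytosolic ribosomal protein genes had calls mostly in the same direction, 20 of 39 being lower and 5 higher after LPS (51.3% and 12.8%). The shares of all genes above the floor were 17.3% and 15.5%. The median of the list was -0.19, or -0.12 without LPS replicate 4. Rpl24 measured 9.78, 9.58, 9.94 and 9.51 after LPS and 11.17, 10.95, 11.02 and 11.06 after BG, 2.55-fold lower (limma adjusted p = 5.02e-13). Rpl38 ran the other way, with 12.40, 12.27, 12.33 and 12.26 after LPS and 11.50, 11.54, 11.43 and 11.45 after BG, 1.78-fold higher (adjusted p = 1.33e-15). All probe sets of Rpl24 lay from -1.35 to -1.02 and all of Rpl38 from 0.82 to 0.89. Ribosomal protein genes have many near-identical copies that such probes can share, so single members are uncertain, as they are for Naip5, Naip6 and Gsta3.

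Early-response transcription factors of the AP-1, Egr and Nr4a families were mixed. Of 23 measured genes 9 were lower and 5 higher after LPS (39.1% and 21.7%, against 17.3% and 15.5% of all genes above the floor). Myc measured 7.91, 7.86, 7.71 and 8.11 after LPS and 8.76, 8.74, 9.15 and 8.71 after BG, 1.92-fold lower (limma adjusted p = 2.84e-06), and Klf6 was 1.42-fold lower. The orphan nuclear receptor genes Nr4a1 and Nr4a2 were 1.68-fold (7.92 ± 0.17 after LPS, 7.17 ± 0.08 after BG) and 1.51-fold higher (limma adjusted p = 2.47e-05 and 6.87e-05).

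Of 18 ATF/CREB family genes 3 were higher and 6 lower after LPS (16.7%, near the 15.5% of all genes above the floor, and 33.3%, against 17.3%), and only 1 was higher without BG replicate 1, 3 or 4. Atf7, whose product represses innate immune genes in macrophages and is the subject of the knockout in the same study, measured 10.86, 10.79, 10.81 and 10.77 after LPS and 10.53, 10.48, 10.37 and 10.45 after BG. It was 1.27-fold higher after LPS (limma adjusted p = 1.94e-06), and its other probe set was higher also (0.28, adjusted p = 0.0138). Atf4 (-0.34), the activator of the amino acid stress response, Batf3 (-0.40) and Atf1 (-0.25) were lower.

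Receptors and effectors of innate defence are given by list, to be read against the 15.5% higher and 17.3% lower of all genes above the floor. Complement had 6 of 16 members higher (37.5%) and 0 lower, or 4 higher with the B cell covariate, among them Vsig4 and C3ar1 (0.24), with C2 and Cd55 at or under the floor on every BG array. Inflammasome genes had 4 of 15 higher and 2 lower (26.7% and 13.3%), or 1 lower without BG replicate 1 or 2. The 4 were the sensor genes Naip6 (0.50), Naip5 (0.44), Naip2 (0.34) and Nlrp3 (0.30), the call of Nlrp3 being lost with arrays centred on the receptor probe sets (limma adjusted p = 0.0667). Naip5 and Naip6 are uncertain as single members, as said above, so the 4 calls may not be 4 separate differences. Among other pattern recognition receptors 7 of 26 were higher (26.9%) and 4 lower (15.4%, with 1 lower without LPS replicate 1 or 2 or BG replicate 4, 2 lower without BG replicate 1 or 3). Tlr8 led with 11.04, 11.00, 11.02 and 11.15 after LPS and 10.67, 10.42, 10.53 and 10.43 after BG, 1.46-fold higher (limma adjusted p = 7e-07). In the list of apoptotic cell uptake 8 of 31 were higher and 6 lower (25.8% and 19.4%), or 3 lower without LPS replicate 1 or 2. Besides Olr1 they included Mfge8 (0.43), a bridging protein gene, and Mertk (0.24), an uptake receptor gene, whereas the annexin gene Anxa1 was 1.77-fold lower (9.96 ± 0.21 after LPS, 10.78 ± 0.11 after BG, adjusted p = 7.72e-06).

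Markers of monocyte-derived and dendritic cells were mixed, with 5 of 21 higher and 6 lower (23.8% and 28.6%). Of these 21, 17 were above the floor. Among all genes above the floor 15.5% were higher and 17.3% lower. The lectin gene Cd209a was 1.87-fold higher after LPS (7.71 ± 0.18 after LPS, 6.81 ± 0.21 after BG, limma adjusted p = 0.00159). The folate receptor gene Folr2 was 1.85-fold lower (8.50, 8.74, 8.85 and 9.17 after LPS, 9.65, 9.80, 9.78 and 9.57 after BG, adjusted p = 0.000113), and the lectin gene Clec10a 1.49-fold lower. MHC class II genes had 3 of 12 higher (25%) and 0 lower, with 9 not called and a median of 0.06. The difference of H2-Eb2 was 0.86. Ciita, the gene of the class II activator, did not pass (7.91 ± 0.27 after LPS, 7.99 ± 0.11 after BG, limma adjusted p = 0.568). With the B cell marker mean as a covariate H2-Eb2 alone of the 3 stayed called (0.59), the calls of H2-Ob and Rfx5 being lost (limma adjusted p = 0.0797 and 0.125). B cells express class II genes too. Of 24 B cell markers the 6 higher (25%) included Cd79a (0.79) and Spib (0.84), and the 2 lower (8.33%) were Blnk (-0.43) and Bhlhe41 (-0.64).

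Arginine metabolism showed 2 genes higher and 3 lower of 13 (15.4% and 23.1%, against 15.5% and 17.3% of all genes above the floor). Arg2, the mitochondrial arginase gene, measured 10.30, 10.14, 10.31 and 10.36 after LPS and 9.41, 9.25, 9.48 and 9.41 after BG, 1.85-fold higher (limma adjusted p = 1.45e-07). Against PBS at 10.75 ± 0.06 Arg2 was lower after both, by -0.47 for LPS (limma adjusted p = 0.0152) and by -1.36 for BG (limma adjusted p = 9.53e-11). The arginine transporter gene Slc7a2 was 1.86-fold higher (9.87 ± 0.20 after LPS, 8.97 ± 0.27 after BG, adjusted p = 4.36e-05), and the ornithine decarboxylase gene Odc1 1.59-fold lower. Trf, the transferrin gene, led the iron list, which had 4 of 20 higher and 1 lower (20% and 5%), with 3 lower without BG replicate 2, 2 without LPS replicate 3 and 0 without BG replicate 3. Its levels were 12.24, 12.10, 12.31 and 11.89 after LPS and 11.25, 11.40, 11.31 and 11.25 after BG, 1.78-fold higher (adjusted p = 1.53e-09).

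Lipid handling under LXR and PPAR was balanced, with 8 of 27 higher and 9 lower (29.6% and 33.3%), or 5 lower without LPS replicate 2 or 3. Among all genes above the floor 15.5% were higher and 17.3% lower. Pparg, the lipid-sensing nuclear receptor gene (-0.54), Nr1h3, which encodes LXRα (-0.38), and the lipase gene Lpl (-0.55) were lower after LPS, and the phospholipid remodelling gene Lpcat3 was higher (0.41). Lysosome and autophagy genes had 4 of 35 higher and 9 lower (11.4% and 25.7%), the lower ones including Tfeb (-0.35), a lysosomal regulator gene, and the cathepsin gene Ctsz (-0.34). Cell cycle genes had 4 of 51 higher (2 without LPS replicate 3, BG replicate 1 or BG replicate 2) and 3 lower, shares under those of all genes above the floor.

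**Figure D5:**
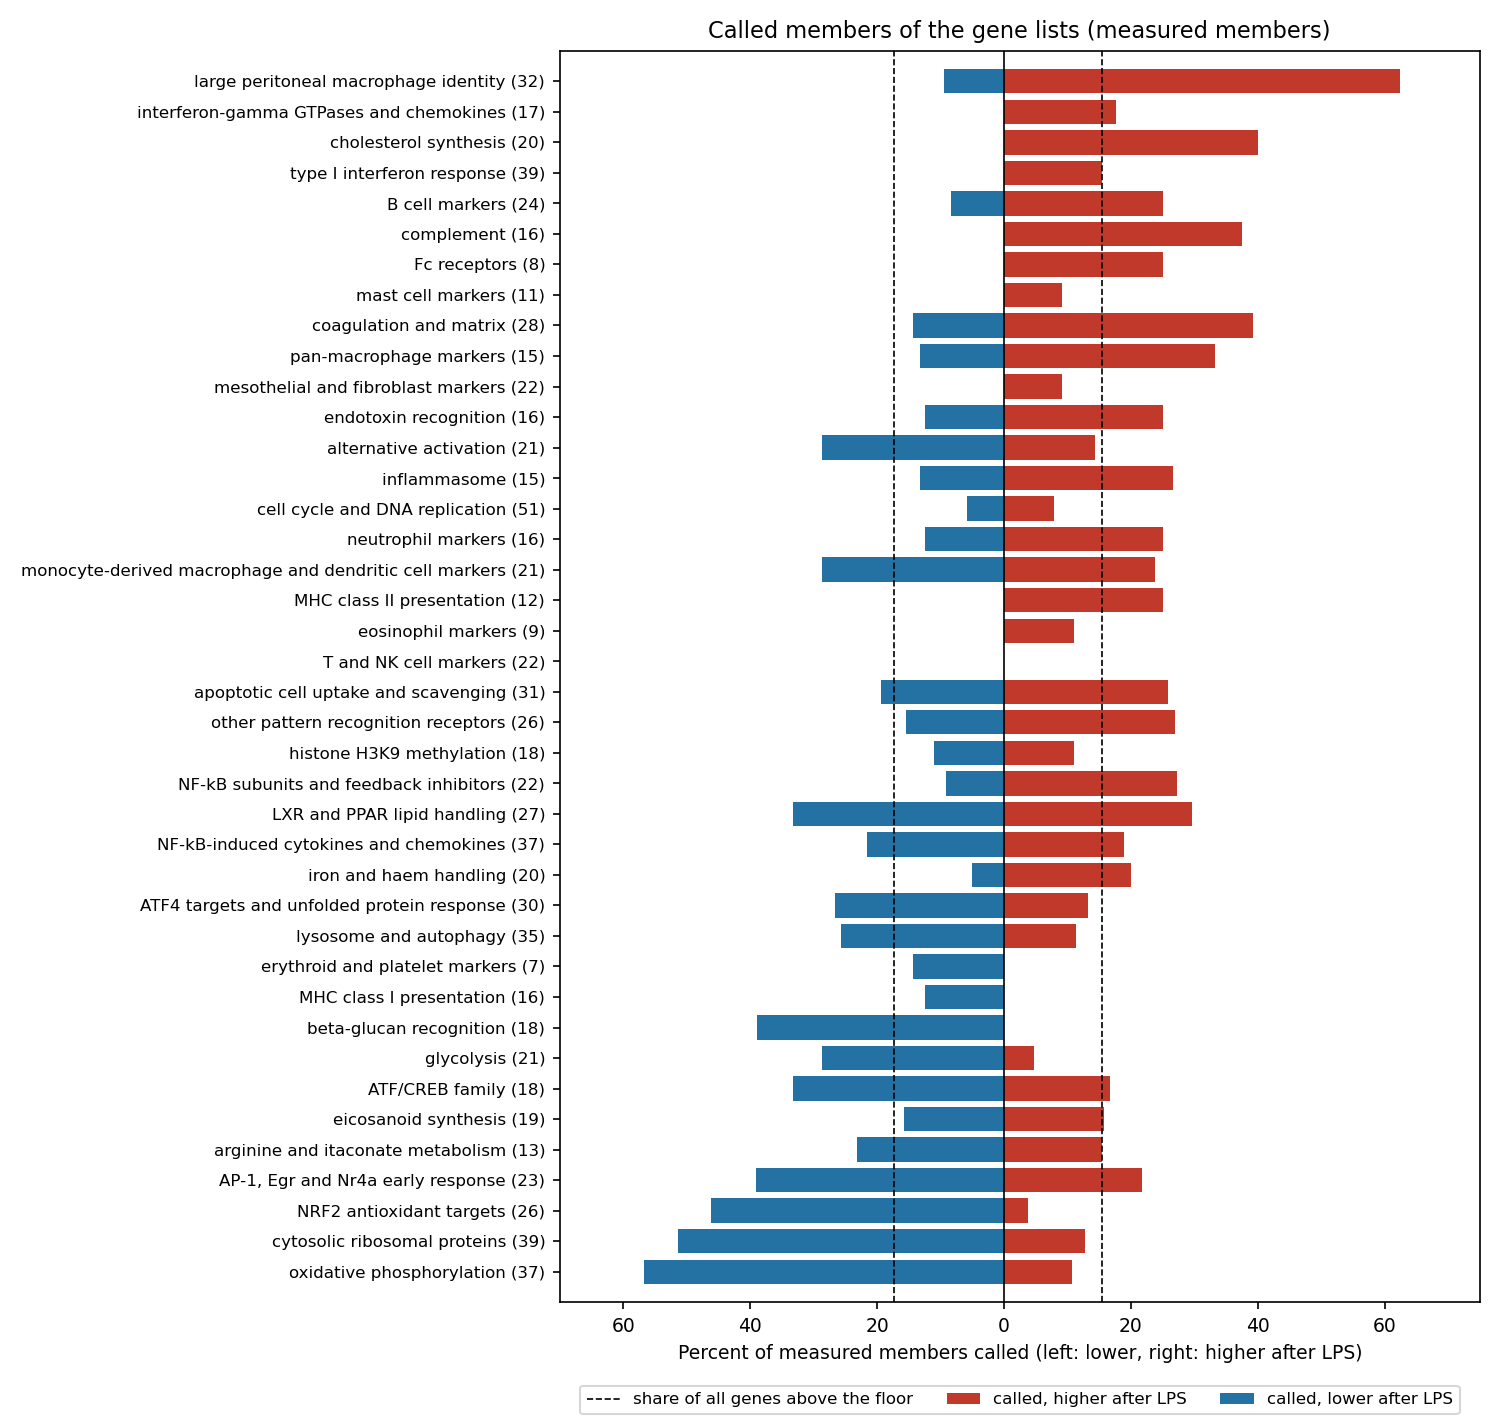
Percent of the measured members of each of 40 gene lists called higher after LPS (red, right) or lower after LPS (blue, left), with the number measured in brackets and lists ordered by their median difference. Dashed lines mark the share of all genes above the floor called in each direction, 15.5% and 17.3%. The identity list reaches 62.5% higher, and oxidative phosphorylation 56.8% lower.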

How the data were processed

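Expression was measured on 28 arrays of mouse peritoneal macrophages, 4 per group. The deposited values are 1 linear signal intensity per probe set and array, made by the authors with Affymetrix Expression Console and RMA, per the submitters' processing notes. RMA corrects background, normalises by quantiles and summarises probes. Neither a software version nor a build is given in the sources used here. The log2 of the deposited intensity was taken here and nothing else was normalised. Median signal per array was 107.1 to 114.6, and the number of arrays limits the precision.

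Of 35556 probe sets, 21789 have 1 gene symbol in the platform table, 1621 have several and 12146 none. limma 3.58.1 in R 4.3.3 fitted 1 mean per group to all 28 arrays with an intensity trend. P-values for LPS minus BG were adjusted by Benjamini-Hochberg over the 21789 probe sets, at a threshold of 0.05. A gene is shown by its probe set with the highest mean, and 20 genes had probe sets called both higher and lower. The floor, the 95th percentile of the means of 1210 odorant and vomeronasal receptor probe sets, is 80.04 in linear signal. It sets bounds, and a gene was above it when at least 4 of the 28 arrays were. The step was tested on simulated data. Figures used matplotlib 3.10.9.

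Named genes are the 12 with the largest called, non-overlapping difference per direction, up to 4 genes with the smallest p from each list with at least 3 calls, and 19 fixed genes, 156 in all. Predicted, small RNA, receptor and immunoglobulin genes were left out. Lists got no test. The members, lists and naming rule were chosen with earlier results of these data known. Same-numbered LPS and BG arrays did not deviate together (correlations of -0.085 to 0.056), so numbers were not treated as pairs. Alternatives covered the arrays fitted, the trend, normalisation, floor filters, probe sets per gene, replicate number, array weights, B cell markers and each array left out.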

Additional observations from a re-analysis of the deposited data

Results flagged for a closer look

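Within the LPS or the BG group, 19 of 312 sets of 4 arrays held 1 array far from the other 3 by Dixon's test, and chance alone gives about 1 in 20 such sets. BG replicate 2 was the array in the most of them, ahead of LPS replicate 4 with 4. LPS replicate 1 had Rel at 10.78 (the others 10.73 to 10.73). LPS replicate 2 had Ly96 at 11.20 (the others 11.37 to 11.38) and Tfeb at 8.53 (8.47 to 8.47). LPS replicate 3 had Ndufb10 at 7.13 (the others 7.03 to 7.05) and Nr1h3 at 8.35 (8.07 to 8.11). LPS replicate 4 had Akr1b8 at 9.18 (the others 8.30 to 8.39), Cd72 at 10.84 (9.34 to 9.58), Fscn1 at 8.83 (9.55 to 9.64) and Tpi1 at 10.43 (10.01 to 10.06). BG replicate 1 had Ndufa4 at 8.88 (the others 9.07 to 9.10) and Pros1 at 9.88 (9.64 to 9.68). BG replicate 2 had Batf2 at 8.24 (the others 7.98 to 8.01), Lgals3bp at 12.46 (12.16 to 12.21), Nfe2l2 at 11.60 (11.54 to 11.55), Prg4 at 11.58 (11.25 to 11.28) and Spib at 7.37 (7.18 to 7.21). BG replicate 3 had Cx3cr1 at 7.37 (the others 7.09 to 7.14), Myc at 9.15 (8.71 to 8.76) and Ptgis at 9.15 (9.36 to 9.38).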

How the results depend on the processing

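The total of 5498 called probe sets ranged from 4569 with the B cell marker mean as a covariate to 6262 with array weights over the alternatives that kept all arrays and were chosen with the design. Leaving out 1 array gave totals of 4581 to 5225, with 2113 to 2486 higher and 2384 to 2745 lower after LPS, and 143 to 187 higher and 157 to 236 lower by at least 1.5-fold. Centring arrays on the receptor probe sets, chosen after seeing the data, left 750 higher, with 90 higher and 369 lower by at least 1.5-fold, in place of 2682, 160 and 187. The fit with replicate number as a block called 5572, and the pairing changed no call of a named gene. Of 147 called named genes 120 kept their call under every alternative that tested them, 7 lost it without 1 array, 25 lost it under another setting and 0 changed sign. The floor filters tested only 154 and 153 of the 156 named genes. The uncalled Card9 difference was -0.006 without LPS replicate 3 and 0.073 without LPS replicate 2, the extremes over single arrays left out, and -0.076 with receptor centring. The 8-array fit called 13 cholesterol, 11 type I and 7 interferon-γ genes, and array weights 13 cholesterol and 9 cell cycle genes higher. With receptor centring 1 NF-κB subunit gene, 4 other pattern receptor genes and 0 pan-macrophage markers were higher. Receptor centring also ended the calls of C3ar1, Mertk, Srebf2, Cysltr1 and Xbp1, and the B cell covariate those of Lss and Cd55. The causes were not tested. With 4 arrays a group, small differences have wide intervals, and 466 called probe sets lay under the floor in both groups, where signal over background limits them.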

Other observations

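Eicosanoid genes had 3 of 19 members higher and 3 lower after LPS (15.8% each, near the 15.5% and 17.3% of all genes above the floor). Ptgis, the prostacyclin synthase gene, was 1.69-fold higher (10.07 ± 0.21 after LPS, 9.31 ± 0.11 after BG, SD, n = 4 each, limma adjusted p = 0.000186), whereas Ptgir, the prostacyclin receptor gene, was 1.36-fold lower (8.94 ± 0.09 after LPS, 9.38 ± 0.03 after BG). The leukotriene receptor gene Cysltr1 was higher (0.35). Unfolded protein response and ATF4 target genes had 4 of 30 higher and 8 lower (13.3% and 26.7%), or 2 higher without LPS replicate 1 and 5 lower without BG replicate 2. The chaperone gene Hspa5 (-0.32) was lower, while Xbp1 (0.24), a transcription factor gene of that response, was higher.

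Of 18 genes of histone H3K9 methylation 2 were higher, Setdb2 (0.35) and Kdm4a (0.18), and 2 lower, the heterochromatin protein genes Cbx3 (-0.23) and Cbx1 (-0.20), 11.1% in each direction. Both shares lay under those of all genes above the floor, 15.5% higher and 17.3% lower. The calls of Setdb2 and Kdm4a were lost with the B cell marker mean as a covariate (limma adjusted p = 0.0594 and 0.0748) and with arrays centred on the receptor probe sets (adjusted p = 0.0812 and 0.48). Neutrophil markers had 9 of 16 at or under the floor in both groups and 7 above it, with 4 higher (25%) and 2 lower (12.5%). Without LPS replicate 1 or BG replicate 3 only 2 were higher. S100a8 was among the lower ones (-0.32, limma adjusted p = 0.0111) and lay at or under the floor on every LPS array. Lcn2, the siderophore-binding lipocalin gene, was 1.56-fold higher after LPS (9.30 ± 0.34 after LPS, 8.66 ± 0.10 after BG, limma adjusted p = 0.00185). Lgals3, the galectin-3 gene, was 1.32-fold lower (12.55 ± 0.07 after LPS, 12.95 ± 0.03 after BG, limma adjusted p = 9.54e-06). Cd68, a lysosomal macrophage marker gene, differed by -0.18. These were the 2 lower of 15 pan-macrophage markers, among which 5 were higher after LPS.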
